A study of Mus musculus with 20 samples.

Results

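The genes described here are 10 genes of the p53 pathway, which are Trp53, Mdm2, Cdkn1a, Ccng1, Trp53inp1, Phlda3, Bax, Bbc3, Pmaip1 and Perp. They were chosen by name for their part in the pathway, out of 33495 genes in the deposited table, and all 10 were found and passed the filter on low counts in every comparison. The data are RNA-seq of 20 libraries of embryonic mouse heart (C57BL/6) in which a floxed Kmt2d allele, which encodes a histone H3 lysine 4 methyltransferase, was deleted by a Cre recombinase from 1 of 3 drivers. The Mesp1Cre driver acts in early mesoderm, and this line was sampled as 4 mutant and 4 control hearts labelled E9.0, although the harvest protocol in the same labels gives E11.5. Mef2cAHF::Cre is active in the anterior heart field and was sampled at E11.5 as right ventricles with outflow tracts, with 3 libraries labelled mutant and 3 labelled control. Tnnt2::Cre is active in cardiomyocytes and was sampled as 3 mutant and 3 control whole hearts at E11.5. Mutants were Cre; Kmt2d fl/fl; mTmG/+ and controls were Cre; Kmt2d fl/+; mTmG/+, so that every control also carried Cre, the mTmG reporter and 1 floxed allele. Cells in which Cre was not active remained in the dissected tissue, and in such bulk samples fewer cells of a type and less RNA per cell cannot be told apart.

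p53, the product of Trp53, is a transcription factor that is held at low levels by the ubiquitin ligase Mdm2 and accumulates after DNA damage, replication stress and other insults. Stabilised p53 binds a response element made of a pair of decamers and induces genes that stop the cell cycle, such as Cdkn1a, and genes that act in apoptosis, such as Bax, Bbc3 and Pmaip1. Mdm2 is itself a p53 target, which closes a feedback loop. p53 is regulated largely at the level of its protein, which RNA-seq does not measure. In mouse embryos, loss of Mdm2 is lethal unless Trp53 is also lost.

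The mouse genome build mm9 was searched for this response element from 5 kb before to 5 kb after the annotated start of each member. A match was 20 bases long, had the fixed C and G of the core of both decamers, and departed from the degenerate consensus at no more than 2 positions. The decamers had to be directly joined, and elements with bases between them or outside this window were not searched for. Both strands were covered, because the element is its own reverse complement. The sequences are shown because this element is how p53 recognises its targets, and capitals mark the core of 4 bases in each decamer. Each is written 5′ to 3′ on the strand of its gene.

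Cdkn1a, upstream of the gene, chr17:29227873-29227892, plus strand: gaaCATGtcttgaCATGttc
Ccng1, upstream of the gene, chr11:40568964-40568983, minus strand: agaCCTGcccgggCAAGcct
Ccng1, intron, chr11:40568438-40568457, minus strand: acgCAAGcccgggCTAGtct
Bax, exon, chr7:52721944-52721963, minus strand: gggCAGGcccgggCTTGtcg
Perp, upstream of the gene, chr10:18562840-18562859, plus strand: attCTAGcccaggCTTGccc
Perp, intron, chr10:18567823-18567842, plus strand: gggCAAGctctggCATGtca

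Distances were counted from the gene start of the mm9 annotation, which for Bax, Perp and Pmaip1 is not that of the deposited table. The element of Cdkn1a was centred 42 bases before the gene start and the upstream element of Ccng1 160 bases before it, and both departed from the consensus at 1 position. The intronic element of Ccng1, centred 366 bases after the start, also departed at 1 position. The elements of Bax and Perp departed at 2 positions and were centred 314 bases after the start of Bax, and 2028 bases before and 2956 bases after the start of Perp. Pmaip1 held 1 match with 2 departures, centred 164 bases before its start. Thus 2 of 10 members held a match with at most 1 departure and 5 of 10 with at most 2. Among 22367 protein-coding genes, 1.72% held a match with at most 1 departure and 9.84% with at most 2 in windows of the same length. These are matches of letters only, and binding was not measured here.

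Total counts per library ran from 21727258 to 28790705 in Mesp1Cre, from 25001020 to 37165163 in Mef2cAHF::Cre and from 35379996 to 45341870 in Tnnt2::Cre. Kmt2d, listed in the table under its older symbol Mll2, was measured first as the targeted gene, in CPM (counts scaled to the depth of the library). In Mesp1Cre it ran from 128 to 144 CPM in mutants and from 152 to 164 in controls, a log2 fold change of -0.21 (SE 0.07, edgeR adjusted p = 0.0764). In Tnnt2::Cre it ran from 107 to 116 CPM in mutants and from 119 to 159 in controls (log2 fold change -0.35, SE 0.12, edgeR adjusted p = 0.327). In Mef2cAHF::Cre it was higher in the libraries labelled mutant, at 187 to 194 CPM against 146 to 156 in those labelled control (log2 fold change 0.32, SE 0.06, edgeR adjusted p = 0.0359). The names of the count columns give these 6 libraries the opposite genotype from their labels, while the library names in the row above them give the genotype of the labels. Both readings are therefore given for this line, and the column names reverse the sign of each of its fold changes. Cardiomyocyte markers were present in all libraries, none of the 10 falling below 1 CPM throughout any group.

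Members differed widely in level, as compared per transcript length in FPKM (fragments per kilobase of transcript, scaled to the depth of the library). In Mesp1Cre controls at E9.0, Ccng1 was highest at 34.8 ± 1.23 FPKM (SD, n = 4). Bax (26.0 ± 1.80), Mdm2 (23.1 ± 2.49) and Trp53 (20.6 ± 2.56) followed, with ranges that overlapped between neighbours, and then Perp (16.6 ± 0.898), whose range overlapped that of Trp53. Cdkn1a (3.92 ± 1.75), Phlda3 (3.78 ± 0.832) and Trp53inp1 (2.14 ± 0.527) formed a lower tier in which the range of Cdkn1a overlapped those of Phlda3 and Trp53inp1.

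Pmaip1 (0.421 ± 0.308 FPKM) and Bbc3 (0.257 ± 0.0779 FPKM) were lowest and overlapped with each other. The first encodes Noxa and the second Puma, both BH3-only proteins of the mitochondrial apoptosis pathway. Bbc3 rested on 10 to 52 counts per library and Pmaip1 on 16 to 136 over the 20 libraries, so that their fold changes carry the widest intervals of the list. In Tnnt2::Cre controls the top place was again taken by Ccng1 (47.3 ± 4.01 FPKM, SD, n = 3) and the last places by Bbc3 (0.424 ± 0.0521) and Pmaip1 (0.199 ± 0.0616). In the Mef2cAHF::Cre libraries labelled control, Cdkn1a reached 14.2 ± 6.88 FPKM, with 1 of 3 libraries at 22.1.

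**Figure D1:**
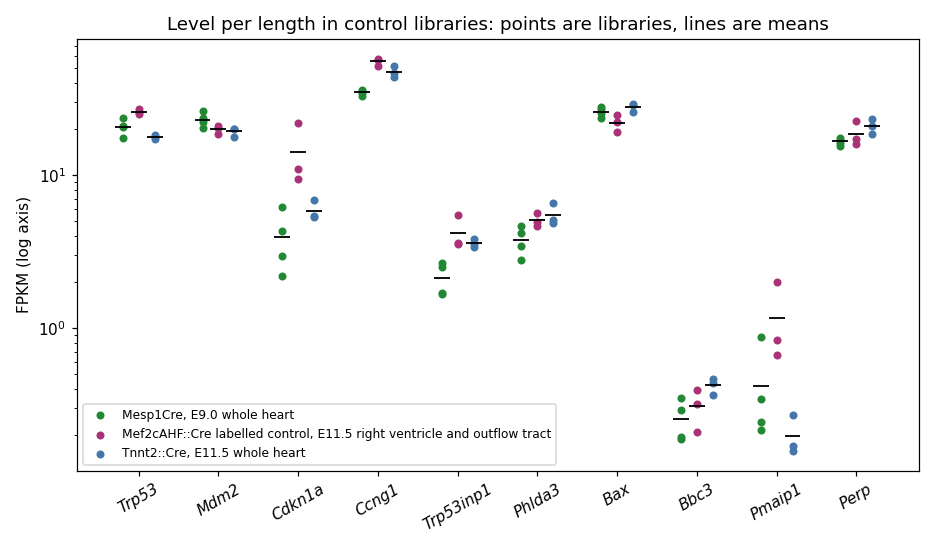
FPKM on a log axis for the 10 members in the 4 Mesp1Cre control libraries, the 3 Mef2cAHF::Cre libraries labelled control and the 3 Tnnt2::Cre control libraries (points) with group means (lines). Ccng1 is highest in all 3 lines and Bbc3 and Pmaip1 reach at most 2.00 FPKM.

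The first comparison asked how the members differed between mutants and controls after deletion with Mesp1Cre. Ccng1 fell, and no other member passed the threshold of 0.05 on the adjusted p of the edgeR quasi-likelihood test. With other processing, 0 to 4 members passed, while between 215 and 3593 of all genes did. Cdkn1a and Pmaip1 had higher means in mutants, by log2 fold changes of 1.00 and 1.25, but with adjusted p of 0.0526 and 0.114. Trp53 and Mdm2 had log2 fold changes of 0.0047 and -0.011. Among all 15883 genes tested, 11.47% passed the threshold, which makes 1 of 10 members close to the background. Without 1 library, 1052 to 2161 genes passed, against 1821 with all 8, the lowest without mutant replicate 1.

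Trp53 read 75.3, 89.2, 98.9 and 89.2 CPM in the Mesp1Cre controls and 81.4, 88.1, 102 and 82.6 in the mutants. Its ranges overlapped almost completely, and the 95% interval of the log2 fold change ran from -0.22 to 0.23. Of its exonic bases, 18.3% have a copy at least 95% identical elsewhere in the genome, and how reads from such copies were assigned was not given in the sources used here.

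Mdm2, which targets p53 for degradation, read 109, 121, 124 and 139.6 CPM in controls and 136, 121, 123 and 111 in mutants. The groups overlapped, with an interval of the log2 fold change from -0.21 to 0.19.

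Cdkn1a encodes p21, an inhibitor of cyclin-dependent kinases that holds cells in G1. It read 5.23, 7.05, 14.2 and 10.2 CPM in controls and 18.6, 10.8, 26.7 and 17.3 in mutants. Mutant replicate 2 lay below control replicate 3, and the other 3 mutants lay above every control. The log2 fold change was 1.00 (SE 0.31, edgeR adjusted p = 0.0526), a 2.00-fold higher level. Leaving out 1 library at a time gave log2 fold changes from 0.77 to 1.29 and adjusted p from 0.0197 to 0.151. Cdkn1a passed the threshold in 2 of these 8 fits, and in 5 of 9 fits with other processing.

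Ccng1 encodes cyclin G1, a p53 target that takes part in feedback on p53 through Mdm2. It read 129.9, 125, 129 and 133 CPM in controls and 92.1, 85.4, 121 and 96.8 in mutants. No mutant reached the lowest control, although mutant replicate 3 came close. The log2 fold change was -0.38 (SE 0.10, edgeR adjusted p = 0.0275), or 0.766 of the control level. The call was kept in 1 of the 8 fits that left out a library, the one without mutant replicate 3, and the adjusted p over these fits ran from 0.0052 to 0.0940. It was also lost on the FPKM scale, at an adjusted p of 0.169. Copies at least 95% identical cover 8.86% of the exonic bases of Ccng1.

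Trp53inp1, a stress-induced protein that promotes p53-dependent arrest and death, read 11.6, 11.8, 17.9 and 17.2 CPM in controls and 23.1, 12.3, 17.8 and 22.1 in mutants. The groups overlapped (log2 fold change 0.36, SE 0.21, edgeR adjusted p = 0.301). Phlda3, a p53 target that represses Akt, ran from 4.67 to 7.54 CPM in controls and from 6.15 to 8.85 in mutants, also with overlap (log2 fold change 0.21, SE 0.22, edgeR adjusted p = 0.608).

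Bax, which permeabilises the outer mitochondrial membrane, read 21.2, 23.3, 19.1 and 22.2 CPM in controls and 19.2, 23.0, 23.5 and 23.9 in mutants. The log2 fold change was 0.06, with an interval from -0.20 to 0.32. Bbc3 ran from 0.408 to 0.741 CPM in controls and from 0.506 to 1.46 in mutants, with overlap and a log2 fold change of 0.80 (SE 0.52, edgeR adjusted p = 0.351).

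Pmaip1 read 0.630, 0.713, 0.968 and 2.51 CPM in controls and 4.00, 2.76, 2.76 and 1.93 in mutants. Control replicate 4 stood well above the other controls and above mutant replicate 4. The log2 fold change was 1.25 (SE 0.48, edgeR adjusted p = 0.114). Without control replicate 4 it was 1.89, with an adjusted p of 0.0260. Pmaip1 also passed in 1 of 9 fits with other processing, that of all 6 groups together (edgeR adjusted p = 0.0494).

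Perp encodes a tetraspan membrane protein of desmosomes that p53 induces in apoptosis. It read 33.4, 32.2, 29.4 and 34.0 CPM in controls and 16.7, 29.1, 25.8 and 25.8 in mutants. All mutants lay below all controls, mutant replicate 1 by the widest margin, yet the log2 fold change of -0.40 (SE 0.15) did not pass the test (edgeR adjusted p = 0.107). Without mutant replicate 1 it was -0.25. Perp passed in 1 of 9 fits with other processing, that of all 6 groups together (edgeR adjusted p = 0.0338).

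In Mesp1Cre, 7 of 10 members had a higher mean in mutants and 3 a lower one, with a median log2 fold change of 0.13 against -0.0018 over all genes tested. An unadjusted p under 0.05 was reached by 4 members (Cdkn1a, Ccng1, Pmaip1 and Perp) and by 26.9% of all genes. Groups without overlap were found for Ccng1 and Perp, 2 of 10 members, against 17.7% of all genes. Erythroid markers moved with genotype in this line. The 9 measured ones summed to between 1958 and 7673 CPM in mutants and between 5520 and 18151 in controls, all 9 were lower in mutants and 5 passed the test, and none was at 0 in any group. Endothelial and endocardial markers were higher, at 676 to 795 CPM in mutants and 521 to 617 in controls, with 7 of 8 higher and 3 past the threshold. With the erythroid level as a covariate, the log2 fold changes were -0.47 for Ccng1 (edgeR adjusted p = 0.181), 0.80 for Cdkn1a (0.574) and 1.67 for Pmaip1 (0.404), and 0 of 10 members and 215 of all genes passed. This covariate itself moved with genotype, so that the fit cannot fully tell them apart. The part of other cell types in the members' values was not tested further.

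**Figure D2:**
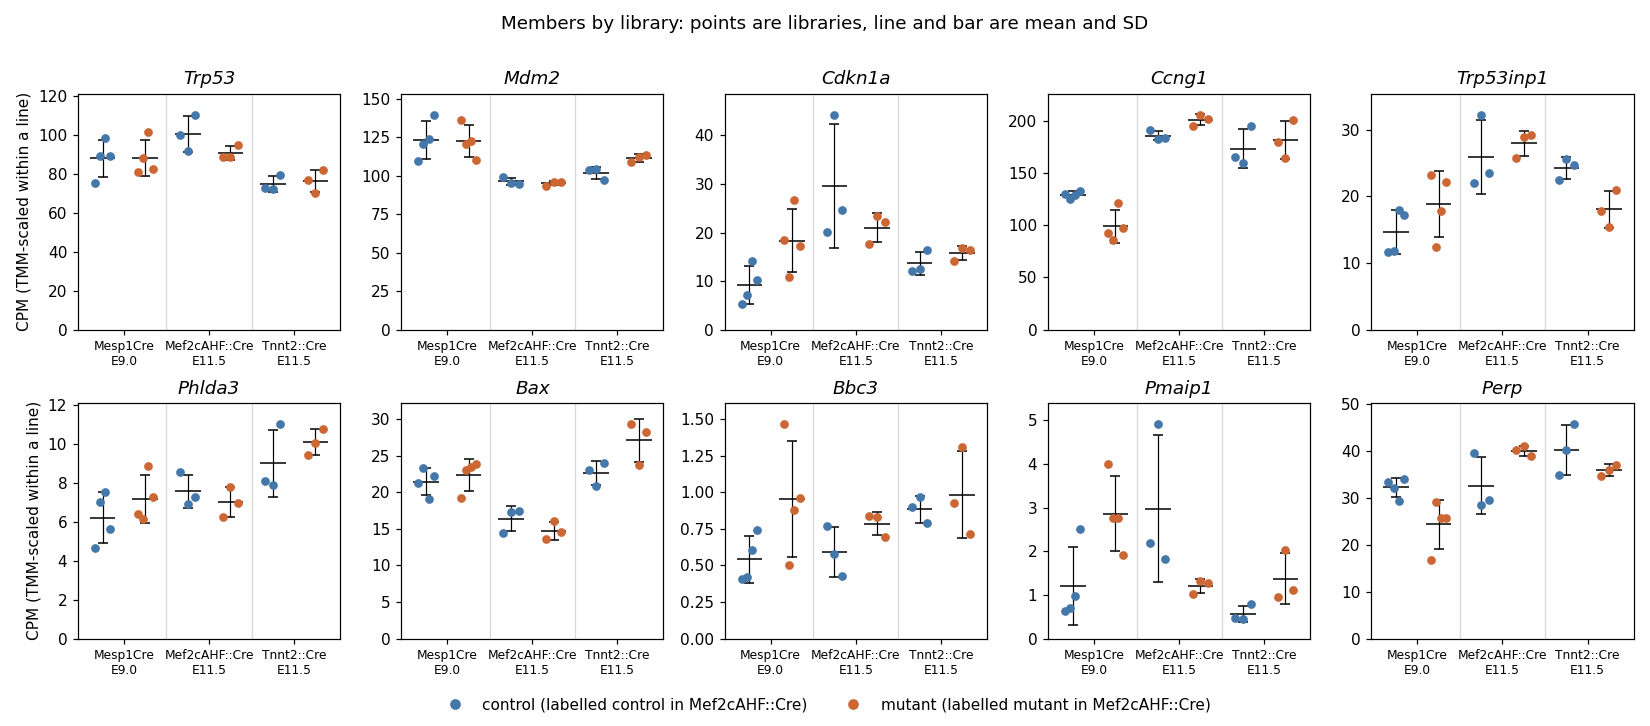
CPM of each member in each library (points) by Cre line, controls in blue and mutants in orange, with group means (lines) and SD (bars), where the Mef2cAHF::Cre groups follow the sample labels. Groups do not overlap for Ccng1 and Perp in Mesp1Cre, Ccng1 and Pmaip1 in Mef2cAHF::Cre, and Mdm2, Trp53inp1 and Pmaip1 in Tnnt2::Cre. The shares of all genes without overlap are 17.7%, 24% and 17.1%.

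The second comparison was of the Mef2cAHF::Cre libraries at E11.5. By the labels or by the column names, 0 of 10 members passed the threshold, against 2.85% of the 16920 genes tested (edgeR quasi-likelihood test). These were 482 genes, and without labelled mutant replicate 1, 2 or 3 there were 78, 75 and 148. The unadjusted p was under 0.05 for 2 members (Pmaip1 and Perp) and for 17.9% of all genes. DESeq2 called 1076 of 29613 genes and 1 member, Pmaip1, at an adjusted p of 0.0245. Groups did not overlap for Ccng1 and Pmaip1, 2 of 10 members, against 24.0% of all genes.

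Pmaip1 read 1.02, 1.32 and 1.27 CPM in the libraries labelled mutant and 2.20, 4.90 and 1.82 in those labelled control. Each library labelled control lay above each labelled mutant, and labelled control replicate 2 was the highest. The log2 fold change was -1.30 under the labels and 1.30 under the column names (SE 0.38, edgeR adjusted p = 0.111). Without labelled control replicate 2 the value by the labels was -0.73.

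Cdkn1a read 17.6, 23.3 and 22.1 CPM in the libraries labelled mutant and 20.1, 44.2 and 24.7 in those labelled control. The same labelled control replicate 2 was the highest, and the remaining libraries of both groups were mixed. By the labels the log2 fold change was -0.50 and by the column names 0.50 (SE 0.26, edgeR adjusted p = 0.359), and without labelled control replicate 2 the former was -0.089.

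Perp read 40.2, 41.1 and 38.9 CPM in the libraries labelled mutant and 39.6, 28.6 and 29.6 in those labelled control. Labelled control replicate 1 overlapped with the labelled mutants, and the other two lay below them (log2 fold change 0.30 under the labels and -0.30 under the column names, SE 0.12, edgeR adjusted p = 0.234). Leaving out labelled control replicate 1 brought Perp past the threshold, the only member to pass in any of the 6 fits without 1 library.

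Ccng1 read 195, 205 and 202 CPM in the libraries labelled mutant and 191, 183 and 183 in those labelled control. The groups were apart by a small step (log2 fold change 0.11 under the labels and -0.11 under the column names, SE 0.06, edgeR adjusted p = 0.392). The remaining members overlapped between groups. Their log2 fold changes by the labels were -0.15 for Trp53, -0.019 for Mdm2, 0.11 for Trp53inp1, -0.11 for Phlda3, -0.16 for Bax and 0.40 for Bbc3, with adjusted p from 0.377 to 0.909.

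By the labels, 4 of 10 members were higher and 6 lower in this line, with a median log2 fold change of -0.066 against -0.0067 over all genes. The column names turn these around. Erythroid markers summed to between 25294 and 47921 CPM in the libraries labelled mutant and between 7367 and 32652 in those labelled control, all 9 being higher in the former and 1 past the threshold. Macrophage markers summed to 25.0 to 31.6 CPM and 33.8 to 44.6 CPM, all 10 being lower in the libraries labelled mutant and 1 past the threshold. Endothelial and endocardial markers summed to 652 to 680 CPM in the libraries labelled mutant and 577 to 624 in those labelled control, with 6 of 8 higher in the former and 1 past the threshold (Npr3). With the erythroid level as a covariate, the log2 fold change by the labels was -0.46 for Pmaip1 and 0.049 for Cdkn1a.

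The third comparison was of Tnnt2::Cre hearts at E11.5, in which 0 of 10 members and 0.293% of the 17045 genes tested passed the threshold of the edgeR quasi-likelihood test. The genes numbered 50, but 896 of 17487 without mutant replicate 1 and 4 to 52 without any other library, and the members called stayed at 0 in these fits. An unadjusted p under 0.05 was reached by 2 members (Pmaip1 and Trp53inp1) and by 11.9% of all genes, and DESeq2 also called 0 members (368 of 25833 genes). Groups did not overlap for 3 of 10 members (Mdm2, Trp53inp1 and Pmaip1), against 17.1% of all genes. Of the 10 members 8 had a higher mean and 2 a lower mean in mutants, with a median log2 fold change of 0.14 against 0.0037 over all genes.

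Pmaip1 read 0.470, 0.443 and 0.787 CPM in controls and 0.952, 2.04 and 1.12 in mutants. Every mutant lay above every control, with mutant replicate 2 the farthest (log2 fold change 1.27, SE 0.40, edgeR adjusted p = 0.283). Trp53inp1 went the other way, at 22.4, 25.6 and 24.6 CPM in controls and 17.8, 15.4 and 20.9 in mutants, again without overlap (log2 fold change -0.42, SE 0.14, edgeR adjusted p = 0.288).

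Mdm2 read 104, 105 and 97.1 CPM in controls and 109, 112 and 114 in mutants, so that the groups did not overlap but were close (log2 fold change 0.13, SE 0.08, edgeR adjusted p = 0.582). Cdkn1a read 12.0, 12.5 and 16.4 CPM in controls and 14.2, 16.9 and 16.5 in mutants, with overlap (log2 fold change 0.22, interval -0.12 to 0.56). Bax read 23.0, 20.9 and 24.0 CPM in controls and 29.3, 23.7 and 28.2 in mutants, where mutant replicate 2 lay within the controls (log2 fold change 0.26, SE 0.12, edgeR adjusted p = 0.436).

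Ccng1, the member that fell in Mesp1Cre, read 166, 159 and 195 CPM in Tnnt2::Cre controls and 179, 164 and 200.3 in mutants. The groups overlapped, and the interval of the log2 fold change ran from -0.20 to 0.33. Trp53, Perp, Phlda3 and Bbc3 also overlapped between groups, with log2 fold changes of 0.031, -0.16, 0.17 and 0.15. Erythroid markers summed to between 18181 and 123512 CPM in mutants and between 96774 and 151427 in controls, all 9 being lower in mutants and 0 past the threshold. Macrophage markers summed to 30.5 to 45.8 CPM in mutants and 23.1 to 32.3 in controls, with 9 of 10 higher in mutants, 0 past the threshold and 4 at an unadjusted p under 0.05. With the erythroid level as a covariate the log2 fold change of Pmaip1 was 0.64, and the part of these cell types in the members' values was not tested further.

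Set side by side, the log2 fold changes of Pmaip1 were 1.25 in Mesp1Cre, 1.27 in Tnnt2::Cre, and -1.30 by the labels or 1.30 by the column names in Mef2cAHF::Cre. None of them passed the threshold in its own line. Those of Cdkn1a were 1.00, 0.22, and -0.50 or 0.50 in the same order. For Perp they were -0.40, -0.16, and 0.30 or -0.30. For these members the sign in Mef2cAHF::Cre was that of the other two lines by the column names and the opposite by the labels. Under the labels, 6 of 10 members had in Mef2cAHF::Cre the sign opposite to that of both other lines, as had 40.5% of the 15351 genes tested in all 3.

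**Figure D3:**
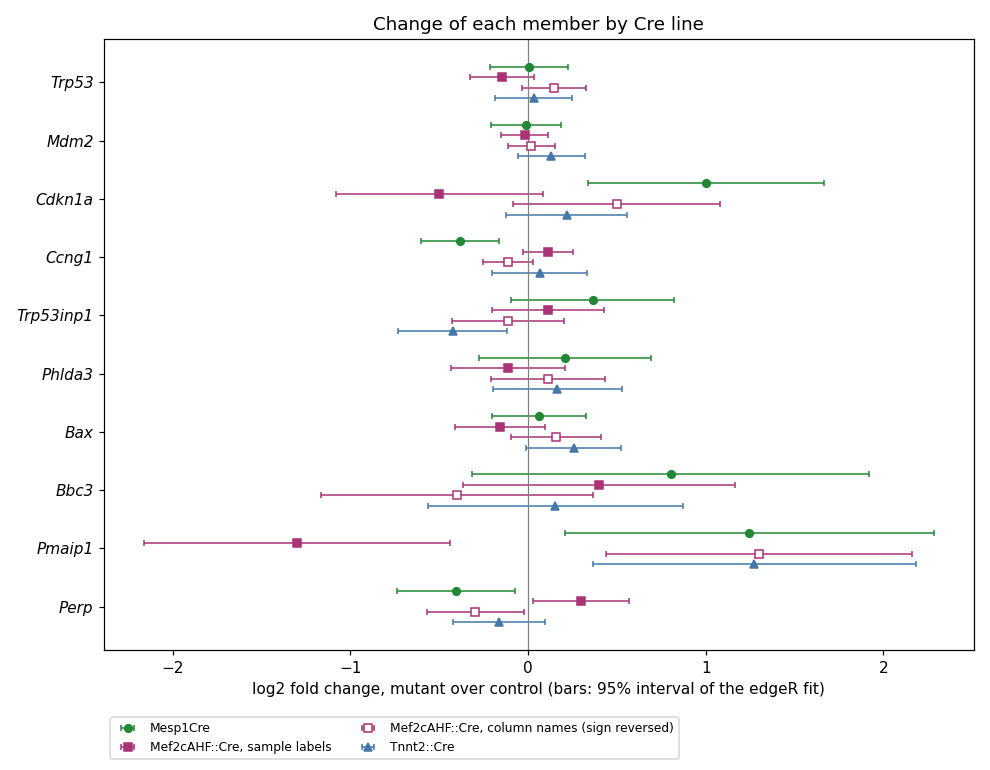
log2 fold change of each member, mutant over control, with the 95% interval of the edgeR fit, for Mesp1Cre (circles), Mef2cAHF::Cre by the sample labels (filled squares) and by the column names (open squares) and Tnnt2::Cre (triangles). Intervals of Trp53 and Mdm2 are narrow and include 0 in all 3 lines, and those of Bbc3 and Pmaip1 are the widest.

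Whether the effect of genotype differed between lines was tested as an interaction in 1 edgeR fit of the 6 groups. Between Mesp1Cre and Tnnt2::Cre, 0 of 10 members differed at an adjusted p under 0.05, against 3.04% of 18391 genes. The unadjusted p was under 0.05 for 2 members and 19.2% of genes, and DESeq2 called 1 member (Ccng1) and 1247 of 30417 genes. The smallest adjusted p was that of Ccng1, whose change was lower in Mesp1Cre by -0.47 on the log2 scale (SE 0.14, edgeR adjusted p = 0.0736). The change of Trp53inp1 was higher in Mesp1Cre by 0.77 (SE 0.28, edgeR adjusted p = 0.132).

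Between Mesp1Cre and Mef2cAHF::Cre by the labels, 4 of 10 members differed, against 11.3% of all genes, and the same 4 had an unadjusted p under 0.05, against 26.0%. The change was higher in Mesp1Cre for Cdkn1a, by 1.48 (SE 0.43, edgeR adjusted p = 0.0303), and for Pmaip1, by 2.53 (SE 0.65, edgeR adjusted p = 0.0151). It was lower in Mesp1Cre for Ccng1, by -0.52 (SE 0.14, edgeR adjusted p = 0.0213), and for Perp, by -0.72 (SE 0.21, edgeR adjusted p = 0.0277). By the column names, 0 of 10 members differed, against 1.63% of all genes, with differences of 0.49 for Cdkn1a, -0.071 for Pmaip1, -0.29 for Ccng1 and -0.13 for Perp, and 1 member (Bbc3) had an unadjusted p under 0.05, against 16.2%. The 4 differences thus rest on which reading of the 6 libraries is right, and by the labels none of the 4 passed without labelled control replicate 2 or with the erythroid covariate. Without that library the differences were 1.08 for Cdkn1a, 1.97 for Pmaip1, -0.50 for Ccng1 and -0.63 for Perp, and with the covariate 0.88, 1.76, -0.55 and -0.54. Of all genes, 1225 of 18948 passed without that library and 772 of 18391 with the covariate.

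Between Mef2cAHF::Cre and Tnnt2::Cre, 0 of 10 members differed by the labels (3.19% of all genes, with 3 members and 15.3% of genes at an unadjusted p under 0.05) and 0 of 10 by the column names (0.0% of all genes, with 0 members and 2.57% of genes at an unadjusted p under 0.05). Pmaip1 came nearest by the labels, with a difference of -2.57 (SE 0.70, edgeR adjusted p = 0.0508), which DESeq2 called. By the column names its difference was 0.036 (SE 0.76).

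The control hearts also allowed the members to be compared between E9.0 (Mesp1Cre, n = 4) and E11.5 (Tnnt2::Cre, n = 3), although stage and Cre line cannot be told apart here. Of the 10 members 4 were higher at E11.5 and 0 lower (edgeR quasi-likelihood test in the fit of 6 groups), against 21.7% higher and 17.9% lower among 18391 genes, or 39.6% in either direction. An unadjusted p under 0.05 was reached by 6 members and 47.5% of genes. The median log2 difference, E11.5 over E9.0, was 0.47 for the members and 0.029 for all genes.

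Ccng1 read 34.7, 33.1, 35.5 and 35.9 FPKM at E9.0 and 46.5, 43.8 and 51.7 at E11.5. The stages were well apart (log2 difference of the scaled counts 0.52, SE 0.10, edgeR adjusted p = 3.19e-04). This held in all 20 fits that left out a library, most of which left out a library other than the hearts compared. Trp53inp1 read 1.68, 1.70, 2.68 and 2.51 FPKM at E9.0 and 3.41, 3.81 and 3.55 at E11.5, also apart (log2 difference 0.82, SE 0.20, edgeR adjusted p = 0.0023).

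Phlda3 read 2.81, 4.21, 4.69 and 3.43 FPKM at E9.0 and 5.11, 4.90 and 6.59 at E11.5, with the lowest E11.5 heart just above the highest E9.0 heart (log2 difference 0.63, SE 0.18, edgeR adjusted p = 0.0083). Perp read 17.1, 16.3, 15.5 and 17.6 FPKM at E9.0 and 18.7, 21.1 and 23.2 at E11.5 (log2 difference 0.41, SE 0.14, edgeR adjusted p = 0.0283). Without Tnnt2::Cre control replicate 3 the calls of Phlda3 and Perp were lost and those of Ccng1 and Trp53inp1 were kept. The call of Perp was also lost without Mesp1Cre control replicate 2 or 3 or Tnnt2::Cre control replicate 2, on both FPKM scales, and with the erythroid covariate, where its log2 difference was 0.16. Phlda3 lost its call with that covariate too (edgeR adjusted p = 0.0548), while Cdkn1a passed. Mdm2 had a log2 difference of -0.18 (edgeR adjusted p = 0.0666), and was called lower at E11.5 with DESeq2 (-0.20, adjusted p = 0.0422) and Trp53 of -0.14 (0.261). Erythroid, macrophage and mesenchymal markers were all higher at E11.5, with median log2 differences of 3.28, 2.31 and 3.03. Beyond the fit with the erythroid covariate, which itself moved with stage, their part in the members' differences was not tested.

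Further genes of the pathway were counted in lists compiled by hand, and the same test across all genes was read for each. In Mesp1Cre, 8 of 43 further p53 targets passed the threshold, or 18.6% against 11.47% of all genes, with 5 higher and 3 lower in mutants. Their median log2 fold change was -0.0043. An unadjusted p under 0.05 was reached by 19 of 43, against 26.9% of all genes. Sesn2, a stress-responsive inhibitor of mTORC1 signalling, rose from 4.53 to 6.37 CPM in controls to 11.1 to 28.5 CPM in mutants (log2 fold change 1.73, SE 0.28, edgeR adjusted p = 0.0020). Plk2, a polo-like kinase, rose from 39.9 to 65.5 CPM in controls to 69.2 to 91.0 CPM in mutants (log2 fold change 0.71, SE 0.16, edgeR adjusted p = 0.0126). Rps27l, a ribosomal protein paralog, fell from 85.8 to 96.3 CPM in controls to 65.8 to 77.4 CPM in mutants (log2 fold change -0.38, SE 0.08, edgeR adjusted p = 0.0129).

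In Mef2cAHF::Cre 3 of 46 further targets passed (6.52% against 2.85% of all genes), 1 higher and 2 lower by the labels and the reverse by the column names. The unadjusted p was under 0.05 for 15 of 46, against 17.9% of all genes. Ak1, an adenylate kinase, ran from 23.2 to 24.6 CPM in the libraries labelled mutant and from 13.2 to 16.5 in those labelled control (log2 fold change 0.66 by the labels, SE 0.10, edgeR adjusted p = 0.0166). It was the one gene of the lists called in more than 1 line, with a log2 fold change of -0.58 in Mesp1Cre (SE 0.13, edgeR adjusted p = 0.0145), where it ran from 19.0 to 25.4 CPM in mutants and from 28.6 to 38.4 in controls. The call of Ak1 was lost in 3 of 6 fits without 1 library in Mef2cAHF::Cre and in 1 of 8 in Mesp1Cre. Its exons share 4.44% of their bases with those of Eng on the same strand, so that its counts are uncertain to that extent. Zmat3, an RNA-binding p53 target, and Psrc1 had log2 fold changes by the labels of -0.33 (edgeR adjusted p = 0.0392) and -0.41 (edgeR adjusted p = 0.0485), and each kept its call in 1 of 6 fits that left out a library. In Tnnt2::Cre 0 of 47 passed, 10 with an unadjusted p under 0.05, which 11.9% of all genes had.

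Regulators of p53 were tested for 22 genes in Mesp1Cre, of which 2 rose and 1 fell (13.6% against 11.47% of all genes). Of the 22, 4 had an unadjusted p under 0.05, against 26.9% of all genes. Atr, a kinase of the replication stress checkpoint, had a log2 fold change of 0.60 (SE 0.12, edgeR adjusted p = 0.0083), and 2 genes on the opposite strand overlap its exons. Chek1, the checkpoint kinase downstream of Atr, had a log2 fold change of -0.51 (SE 0.15, edgeR adjusted p = 0.0433) and lost its call in 6 of 8 fits without 1 library. Ep300, an acetyltransferase and p53 coactivator, had a log2 fold change of 0.24 (SE 0.07, edgeR adjusted p = 0.0466) and lost its call in 7 of 8. In the other lines 0 of 23 and 0 of 22 regulators passed, with 1 and 2 at an unadjusted p under 0.05, which 17.9% and 11.9% of all genes had.

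In the BCL2 family, 3 of 14 tested genes were higher and 0 lower in Mesp1Cre mutants (21.4% against 11.47% of all genes). Bnip3 ran from 119 to 161 CPM in controls and from 444 to 674 in mutants (log2 fold change 1.90, SE 0.14, 3.74-fold), and Bnip3l from 164 to 180.2 CPM and from 327 to 435 (log2 fold change 1.11, SE 0.09, 2.15-fold). Both are mitochondrial proteins known as targets of hypoxia-inducible factor and as receptors for mitophagy, and both kept their call in each of the 8 fits without 1 library and in each other fit run, the erythroid covariate included. Bcl2l11, which encodes the BH3-only protein Bim, had a log2 fold change of 0.56 (SE 0.16, edgeR adjusted p = 0.0359) with overlapping groups, and lost its call in 6 of 8 fits without 1 library. The median log2 fold change of the family was -0.094, with 9 of 14 lower, and 7 of 14 had an unadjusted p under 0.05 (26.9% of all genes). In Mef2cAHF::Cre and Tnnt2::Cre 0 of 15 and 0 of 14 passed, with 3 and 6 at an unadjusted p under 0.05 (17.9% and 11.9% of all genes).

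Of 24 genes of the caspase pathway tested in Mesp1Cre, 2 fell and 0 rose (8.33% against 11.47% of all genes), and 6 had an unadjusted p under 0.05 (26.9% of all genes). Cycs, cytochrome c, ran from 129 to 146 CPM in controls and from 65.8 to 109 in mutants (log2 fold change -0.62, SE 0.13, edgeR adjusted p = 0.0083). Birc5, which encodes survivin, an inhibitor of apoptosis that also acts in mitosis, ran from 80.1 to 97.6 CPM in controls and from 64.0 to 71.1 in mutants (log2 fold change -0.39, SE 0.09, edgeR adjusted p = 0.0159). The call of Birc5 was lost in 3 of 8 fits without 1 library. Of 5 further inhibitors of cyclin-dependent kinases, 1 passed (20% against 11.47% of all genes) and 2 had an unadjusted p under 0.05. The 1 that passed, Cdkn1b (p27), rose, from 20.2 to 25.8 CPM in controls to 32.2 to 49.6 in mutants (log2 fold change 0.72, SE 0.15, edgeR adjusted p = 0.0088). In the other lines 0 of 25 caspase pathway genes and 0 of 6 inhibitors passed in each, with 2 and 2 at an unadjusted p under 0.05 in Mef2cAHF::Cre and 3 and 1 in Tnnt2::Cre, beside 17.9% and 11.9% of all genes. Over these 5 lists, 17 genes passed in Mesp1Cre, and with the erythroid level as a covariate 2 of them did, Bnip3 and Bnip3l, while the calls over all genes went from 1821 to 215. With this covariate the log2 fold change of Sesn2 was 1.12, that of Plk2 0.95, that of Cycs -0.47 and that of Atr 0.45. The 3 genes of the lists that passed in Mef2cAHF::Cre did not pass with this covariate. In both lines the erythroid markers moved with genotype, so that such a fit cannot fully tell them apart.

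**Figure D4:**
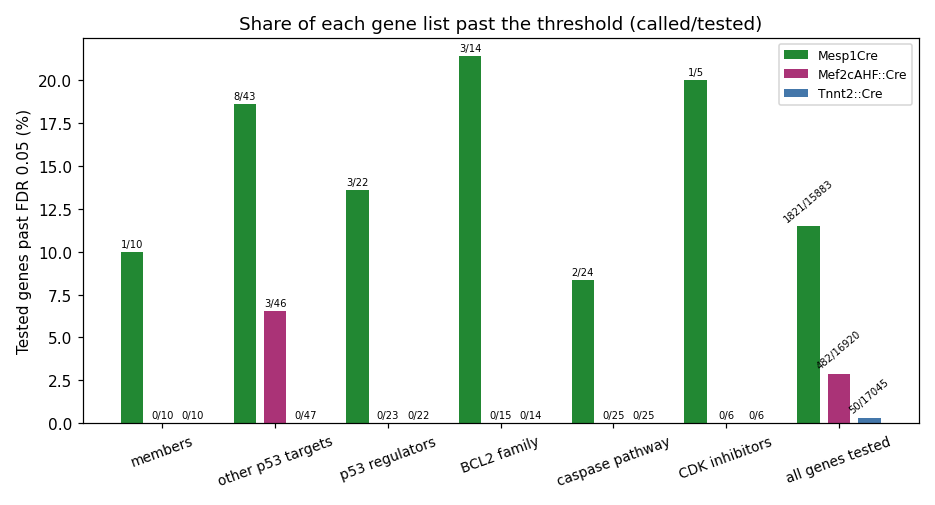
Percent of the tested genes of each list past an adjusted p of 0.05 in Mesp1Cre, Mef2cAHF::Cre and Tnnt2::Cre (bars, called and tested genes above each), with all genes tested at the right. In Mesp1Cre 1 of 10 members passed beside 11.47% of all genes, and in the other lines 0 of 10.

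The genes whose pattern was most like that of Cdkn1a were sought over the 20 libraries among 15350 genes tested in every line, by the root mean square difference of log2 CPM after each line's mean was taken off. The 3 closest were Kctd12b (0.27), Ppard (0.28), a nuclear receptor for fatty acids, and Kdelr3 (0.28), a receptor that returns proteins to the endoplasmic reticulum. Their log2 fold changes in Mesp1Cre were 0.68 (edgeR adjusted p = 0.128), 0.84 (edgeR adjusted p = 0.0476) and 0.92 (edgeR adjusted p = 0.0081). The nearest other member, Trp53inp1, came at place 528 (0.41), followed by Phlda3 at 698 (0.42), and Ccng1 and Perp came at 7915 (0.59) and 11915 (0.70). A gene that did not vary within lines would lie at 0.515, and Pmaip1 (0.543), Ccng1 and Perp were farther than that. The points share libraries, and the likeness is a description over these samples.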

How the data were processed

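RNA-seq was analysed from 20 libraries in 6 groups, grouped by their titles. The authors aligned the reads to mm9 (TopHat2 2.0.8b per the submitters' processing notes). By their methods they assigned reads to genes with featureCounts, while the deposited raw counts and FPKM are both named as computed by USeq. FPKM were used here for levels between genes. Of the columns 40 were used, the 20 of variance-corrected log2 values that the authors deposited from USeq were not, and 0 columns of values went unassigned. Strandedness of the counting was not given in the sources used here. The coordinates in the table were compared with a mm9 gene annotation, in which 31672 of 33495 identifiers were found, 68.2% of them with the same start and end.

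The deposited counts were fitted in edgeR 4.0.16 (R 4.3.3), each line by itself, with filterByExpr, TMM and the quasi-likelihood F test, and p was adjusted over all genes tested (Benjamini-Hochberg, threshold 0.05). SEs were taken as the absolute log2 fold change divided by the square root of F, and intervals are at 95%. Differences between lines, and the control hearts at E9.0 and E11.5, were tested in 1 fit of 6 groups. Log2 CPM used a prior count of 2. p-values measure the spread between libraries, which are not stated in the labels to be separate embryos. Replicate numbers are shared between genotypes, but same-numbered libraries correlated by -0.04 to 0.18 in their deviations from group means and so were not treated as pairs. The table's header also gives a code common to the mutant and control of each number in Mesp1Cre, and no source used here says what it stands for.

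The members and lists were chosen with earlier results of these data known. The text names all members, Kmt2d, list genes past the threshold in 2 lines or among the 3 smallest adjusted p of a list and line, and the 3 genes most like Cdkn1a. Of the list symbols, 1 further p53 target, 2 BCL2 family genes and 1 erythroid marker had no match. Alternatives were DESeq2 1.42.0 (size factors, and its Wald test), no filter (1 count in total), at least 10 counts in every library, limma 3.58.1 on log2(FPKM + 0.1) and log2(FPKM + 1), 1 fit of 6 groups, the replicate block, the mean log2 CPM of erythroid markers as a covariate, the column names, and each library left out in turn.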

Additional observations from a re-analysis of the deposited data

Results flagged for a closer look

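In Mesp1Cre mutants, Ep300 in replicate 1 stood apart from the other 3 libraries at 303 CPM, its gap to the nearest taking 0.941 of the range of the group. Such a gap was looked for in 50 groups of 4 libraries, and chance gives it in about 1 of 20.

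By the sample labels, the effect of genotype differed between Mesp1Cre and Mef2cAHF::Cre by the interaction test for 4 of 10 members, against 11.3% of all genes. The log2 differences were 1.48 for Cdkn1a, -0.52 for Ccng1, 2.53 for Pmaip1 and -0.72 for Perp. By the labels, 0 members passed without labelled control replicate 2 or with the erythroid covariate. By the column names, none of the 10 members differed in the same edgeR fit (smallest adjusted p = 0.300, 1 member with an unadjusted p under 0.05), against 1.63% of all genes.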

How the results depend on the processing

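Of the 10 members, 1 passed in Mesp1Cre, and 2 (Cdkn1a and Ccng1) with the DESeq2 Wald test, with all genes of at least 1 count, with at least 10 counts in every library and with the replicate block, where the adjusted p of Cdkn1a was 0.0178 (higher in the mutant at all 4 replicate numbers) and that of Ccng1 0.0348. It was 4 in the fit of 6 groups (Cdkn1a, Ccng1, Pmaip1 and Perp), 0 with the erythroid covariate, 0 on either FPKM scale, and 0 to 1 without 1 library. Of all genes, 1821 of 15883 passed in the main fit, 3593 of 18391 in the fit of 6 groups and 215 of 15883 with the erythroid covariate. The DESeq2 Wald test called 2724 of 24737, and the 2 FPKM scales 1924 and 1925 of 15883. In Mef2cAHF::Cre the members passing numbered 0, 1 with DESeq2 and 1 without the filter (Pmaip1, beside 1076 and 1311 of 29613 genes), and 0 to 1 without 1 library. In Tnnt2::Cre they numbered 0 throughout. Mesp1Cre against Tnnt2::Cre gave 0, 1 (Ccng1) with DESeq2 and 1 with the erythroid covariate (beside 1247 of 30417 and 1224 of 18391 genes), and 0 to 1 without 1 library. Mesp1Cre against Mef2cAHF::Cre gave 4, 0 by the column names, 0 with the erythroid covariate, 4 on each FPKM scale, with Bax and Trp53 in place of Ccng1 and Perp, and 0 to 4 without 1 library. Of 18391 genes, 2076 passed in its main fit, 299 by the column names, 772 with the covariate and 3156 and 3285 on the FPKM scales. Those scales also moved the median log2 difference of all genes to 0.27 and 0.18. Mef2cAHF::Cre against Tnnt2::Cre gave 0, 1 with DESeq2, without the filter, with at least 10 counts and on log2(FPKM + 1), 2 on log2(FPKM + 0.1), and 0 to 1 without 1 library. There 586 of 18391 genes passed in the main fit, 1041 of 30417 with DESeq2, 829 of 30417 without the filter and 657 of 13315 with at least 10 counts. On log2(FPKM + 1) and log2(FPKM + 0.1) the genes passing were 1519 and 1375 of 18391. The controls of 2 stages gave 4, 5 with DESeq2 or its size factors (Mdm2, lower, added), 5 without the filter (Cdkn1a added), 4 on each FPKM scale (Mdm2, lower, in place of Perp), and 2 to 5 without 1 library. With the erythroid covariate they gave 3 (Cdkn1a, Trp53inp1 and Ccng1). Of all genes, 7280 of 18391 passed between these controls in the main fit, 7715 of 30417 with DESeq2 and 7279 of 18391 with its size factors. The count was 6815 of 30417 without the filter, 7106 and 6808 of 18391 on the FPKM scales and 4604 of 18391 with the covariate. The block changed no other count of members called. The cause of these differences was not tested.

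Signs turned mainly for members near 0. In Mesp1Cre, Mdm2 was 0.15 on log2(FPKM + 0.1), 0.14 on log2(FPKM + 1) and -0.067 to 0.051 without 1 library, and Trp53 was -0.013 in the fit of 6 groups and -0.065 to 0.063 without 1 library. The FPKM scales moved the median of all genes in Mesp1Cre to 0.15 and 0.11. In Mef2cAHF::Cre the column names gave 0.50 for Cdkn1a, 0.019 for Mdm2, -0.11 for Trp53inp1, -0.11 for Ccng1, 0.16 for Bax, -0.40 for Bbc3, 1.30 for Pmaip1, 0.15 for Trp53, -0.30 for Perp, 0.11 for Phlda3, -0.66 for Ak1, 0.33 for Zmat3 and 0.41 for Psrc1, and -0.071 for Pmaip1 in Mesp1Cre against Mef2cAHF::Cre. By the labels, Cdkn1a was 0.049 with the erythroid covariate, Trp53inp1 -0.0060 and -0.0086 and Ccng1 -0.021 and -0.021 on the 2 FPKM scales. In Tnnt2::Cre, Bbc3 was -0.044 with the erythroid covariate and -0.10 to 0.33, Ccng1 -0.013 to 0.16 and Trp53 -0.021 to 0.088 without 1 library.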
